A study of Caenorhabditis elegans with 4 samples.

Results

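Chromosome IV held 10411 of the 60141 peaks in the 3 deposited lists of LIN-39 binding in Caenorhabditis elegans, and these were taken as every peak whose chromosome name is IV. They were 5056 of the 30000 peaks of ChIP replicate 1, 5337 of the 30000 peaks of ChIP replicate 2, and 18 of the 141 peaks of a list that belongs to no single sample, whose peaks are called series-level sites. The peaks come from chromatin immunoprecipitation with sequencing (ChIP-seq), in which DNA bound by a protein is recovered with an antibody and sequenced. Whole hermaphrodites were grown at 20 °C and fixed at L4, the larval stage that precedes the adult. ChIP DNA and input DNA (chromatin set aside before the antibody) gave 2 libraries each. All 4 came from strain OP18, in which the unc-119(ed3) mutation on III is rescued by unc-119(+) on the transgene wgIs18, introduced by bombardment, which also carries lin-39::TY1::EGFP::3xFLAG.

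The protein followed was therefore the LIN-39 fusion made from the transgene and recovered with an antibody to GFP. The genotype lists no mutation of lin-39 itself. The input libraries entered no comparison. Peaks from whole animals do not show in which cells LIN-39 was bound. The sources used here do not say whether the 2 ChIP replicates were separate cultures, so the p-values below describe these lists of positions and not the spread between cultures.

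LIN-39 is a Hox protein, a homeodomain transcription factor that gives cells of the middle of the body their identity, among them the vulval precursors and motor neurons of the ventral cord. Chromosome IV is known for its piRNA genes, very short genes that each make 1 small RNA used in the germ line by the Argonaute protein PRG-1 to recognise foreign transcripts. In the RefSeq gene table for the WBcel235 build, 14714 of 15363 piRNA genes (95.8%) are on IV. Most of these lie in 2 broad stretches, taken here as 4.5 to 7 Mb and 13.5 to 17.2 Mb in WormBase WS220, the build of the peak lists. Gene positions of WBcel235 were not carried over to WS220, so the limits of the stretches were not checked against the genes and no peak is assigned to a gene.

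Each peak has a number in its name, read here as its rank in the list with 1 as the strongest, and a score deposited by the authors on a log10 scale. From its values, the score behaves as minus log10 of an estimated false discovery rate. A score above 0 then means that peaks outnumbered the calls from a background, and a score of 0 or below means that they did not. Of the peaks on IV, 1408 in replicate 1 (27.8%) and 285 in replicate 2 (5.34%) had scores above 0, against 28.1% in replicate 1 and 5.90% in replicate 2 on the other chromosomes. Among the peaks of IV numbered up to 1000, which held 136 peaks in replicate 1 and 161 in replicate 2, 17 and 62 had scores above 0. Beyond number 1000 no score on IV exceeded 0.0101 in replicate 1 or 0.00160 in replicate 2. Peaks of the replicate lists are therefore called candidate peaks. The lists carry no read counts, so the depth of the libraries is unknown.

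The 18 series-level sites are read here as positions of IV retained by a procedure comparing the replicates, whose settings the sources used here do not give. All of them overlapped a peak in both replicates by at least 1 bp, which such a procedure would largely build in. Series-level scores above 0 were given to 6 sites, with numbers 15, 19, 27, 29, 59 and 62 of the 141. The other 12 had scores at or below 0 and stood at numbers 97 to 135.

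The site at IV 4749797 to 4750300 had the lowest series-level number on the chromosome and lay in the left piRNA-rich stretch. It was number 15 of the series-level list, with the highest score of that list (1.61), number 18 in replicate 1 (score 0.699) and number 15 in replicate 2 (score 1.84). Its centre lay 39 bp from that of the replicate 1 peak and 15 bp from that of the replicate 2 peak. The site at IV 1094107 to 1094610, in the left arm, shared the highest series-level score and ranked 24 in replicate 1 (0.718) and 26 in replicate 2 (1.84). These were the 2 sites of IV among the 21 that share that score, and the 2 peaks of IV among the 35 with the highest score of replicate 2. None of the 10 peaks with the highest score of replicate 1 was on IV.

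The next sites by series-level number were less evenly placed in the replicates. IV 8431968 to 8432471 ranked 68 in replicate 1 and 40 in replicate 2, with a series-level score of 0.879. IV 654671 to 655174 ranked 25 in replicate 1 and 88 in replicate 2, with a series-level score of 0.642. Both stood within the first 100 numbers of each list. IV 9089759 to 9090262 ranked 57 in replicate 2 but 784 in replicate 1, where its score was -0.0387. IV 168208 to 168711, the leftmost of the 18, ranked 55 in replicate 2 and 1102 in replicate 1.

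Among the 12 sites with scores at or below 0, replicate 1 and replicate 2 often disagreed on rank. IV 8492699 to 8493202 ranked 31 in replicate 1 (score 0.555) and 18568 in replicate 2, the widest gap of the 18. IV 7662905 to 7663408 ranked 61 in replicate 2 (score 0.539) and 5392 in replicate 1. IV 17278273 to 17278776, near the right end, ranked 58 in replicate 2 and 2670 in replicate 1. In each of these sites 1 replicate alone placed the peak near the top of its list.

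IV 11438060 to 11438563 ranked 70 in replicate 2 and 2781 in replicate 1, and its centre was 202 bp from that of the replicate 2 peak. IV 11247204 to 11247707 ranked 72 in replicate 2 and 461 in replicate 1, with its centre 272 bp from that of the replicate 1 peak, the largest distance of the 18. At both sites the peak of 1 replicate was offset from the series-level peak. With centres within 100 bp required in both replicates, 14 of the 18 sites remained.

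The remaining 7 sites had numbers between 123 and 1269 in replicate 1 and between 99 and 1862 in replicate 2. IV 7505486 to 7505989 ranked 329 in replicate 1 and 99 in replicate 2, and IV 3050636 to 3051139 ranked 408 in replicate 1 and 491 in replicate 2. IV 2219459 to 2219962 ranked 497 in replicate 1 and 212 in replicate 2. The other 4 lay in the piRNA-rich stretches. IV 6961775 to 6962278, just inside the 7 Mb limit, ranked 123 in replicate 1 and 1862 in replicate 2. IV 5930941 to 5931444 ranked 637 in replicate 1 and 222 in replicate 2, and IV 5766118 to 5766621 ranked 217 in replicate 1 and 107 in replicate 2. IV 13704202 to 13704705 ranked 1269 in replicate 1 and 210 in replicate 2.

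Over the 18 sites the median number was 434.5 in replicate 1 and 80 in replicate 2, and 13 sites stood closer to the top in replicate 2. Scores above 0 were found for 5 of the sites in replicate 1 and for 15 in replicate 2. These score counts and placings were not computed for the series-level peaks of the other chromosomes. Among all peaks of IV in the first 1000 numbers, scores above 0 were also more frequent in replicate 2 (62 of 161) than in replicate 1 (17 of 136). The first 1000 numbers of both replicates held 11 of the 18 (61.1%), against 72.3% of all 141 series-level peaks.

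**Figure D1:**
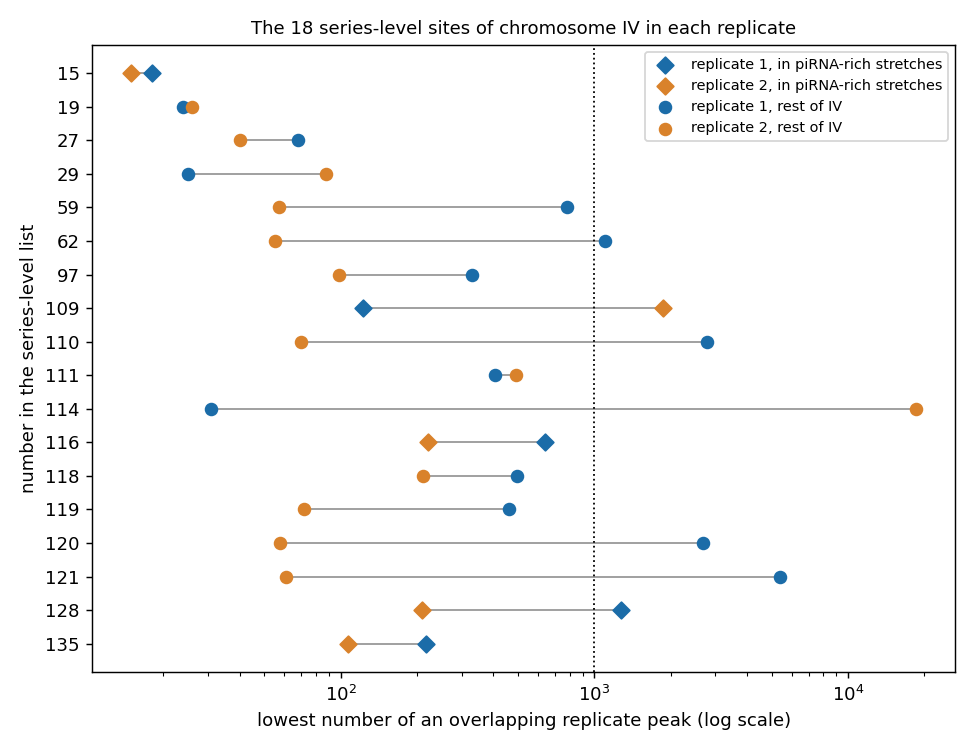
The 18 series-level sites of chromosome IV, one per row in the order of their series-level number (vertical axis), with the lowest number of an overlapping peak in replicate 1 (blue) and replicate 2 (orange) on a log scale (horizontal axis). Diamonds are sites in the piRNA-rich stretches, circles are sites elsewhere on IV, and the dotted line marks number 1000. Sites 15, 19, 27 and 29 lie within the first 100 numbers of both replicates, whereas site 114 runs between number 31 and number 18568.

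Series-level sites on IV had low scores more often than those elsewhere. Scores above 0 were found for 6 of 18 sites on IV (33.3%, 95% exact interval 13.3 to 59), against 86 of 123 on the other chromosomes (69.9%, 61 to 77.9) and 65.2% of all 141. The share on the other chromosomes ran between 50% on V and 92.3% on II. The difference passed a two-sided Fisher's exact test (p = 0.00355, adjusted p = 0.0213 over the 6 chromosomes), which was chosen after the values were seen. It depended on where the line was drawn. Estimates below 0.5 were reached by 27.8% of the sites on IV and 40.7% elsewhere, and the first 70 numbers held 33.3% of the sites on IV and 52% of those elsewhere, and neither difference passed (adjusted p = 0.658 and 0.799, Fisher's exact test).

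The 10 lowest-numbered peaks on IV in each replicate show how far the lists agreed at the top. In replicate 1 these ran from number 18 to number 96, and 9 of the 10 overlapped a replicate 2 peak of any number. In replicate 2 they ran from number 15 to number 72, and all 10 overlapped a replicate 1 peak. On the other chromosomes, 75 of 89 peaks numbered 1 to 100 overlapped in replicate 1 (84.3%) and 78 of 84 in replicate 2 (92.9%). On IV a series-level site was overlapped by 6 of the 10 in replicate 1 and by 9 of the 10 in replicate 2. This count was not made for the other chromosomes.

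Of the replicate 1 peaks, 4 lay over peaks that were also among the 10 of replicate 2, and 2 of these 4 were neighbouring peaks at 8431760 and 8431972 over the same site. The peaks of replicate 1 with no series-level site were at IV 9518698 to 9519193 (number 46), 11028449 to 11028944 (number 48), 15098243 to 15098738 (number 89) and 6507959 to 6508454 (number 96). The first 3 overlapped replicate 2 peaks numbered 16245, 21104 and 8832, and the last overlapped none. In replicate 2 the peak with no series-level site was IV 6433114 to 6433603, number 71, which overlapped number 8816 of replicate 1. These 5 peaks stood high in 1 replicate and met a far lower-placed peak, or none, in the other.

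Within the first 1000 numbers of both lists, 19 of the 136 replicate 1 peaks on IV overlapped a replicate 2 peak (14%). Over all chromosomes 14.5% of the 1000 replicate 1 peaks did. Of the 161 replicate 2 peaks on IV, 18 (11.2%) were matched in this way. The share over all chromosomes was not computed in that direction, so 14.5% is not its reference. The 19 join into 17 separate intervals, as neighbouring peaks shared the series-level sites numbered 27 and 135. Of the 19 peaks, 13 overlapped a series-level site, a count that was not made for the other chromosomes. The best placed of the 6 that did not was IV 10935957 to 10936452, number 115 in replicate 1 (score 0.0274) and number 301 in replicate 2 (score 0.0860). The next was IV 11082119 to 11082614, number 277 in replicate 1 and number 123 in replicate 2, where its score was 0.394. The other 4 were at IV 6065369 to 6065864 (numbers 139 in replicate 1 and 791 in replicate 2), 16056969 to 16057464 (524 and 927), 8077127 to 8077622 (845 and 509) and 16202074 to 16202569 (878 and 553).

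Peaks were spread over the whole of IV but were sparser in its left arm. Counts in the 17 full bins of 1 Mb ran between 209 and 359 in replicate 1 (median 302) and between 224 and 386 in replicate 2 (median 314). The 3 fullest bins were those from 14 to 15 Mb, with 355 peaks in replicate 1 and 386 in replicate 2, from 10 to 11 Mb, with 359 and 344, and from 5 to 6 Mb, with 314 and 364. The first and the last of these lie in the piRNA-rich stretches and the middle one lies between them. The 3 emptiest were the first 3 bins of the chromosome, from 1 to 2 Mb (211 in replicate 1 and 224 in replicate 2), from 2 to 3 Mb (209 and 229) and from 0 to 1 Mb (251 and 226).

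Replicate 2 had more peaks than replicate 1 in 14 of the 17 full bins. Both lists hold 30000 peaks, so this reflects the share of IV, 16.9% in replicate 1 and 17.8% in replicate 2, and not a larger total. The widest difference was in the bin from 16 to 17 Mb, with 283 peaks in replicate 1 and 352 in replicate 2. Across the 17 bins the counts of the replicates were correlated (Pearson's r = 0.877, Spearman's rho = 0.836), as a description of bins that share a chromosome and its mappable sequence. For the first 1000 numbers alone these were 0.559 and 0.545.

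**Figure D2:**
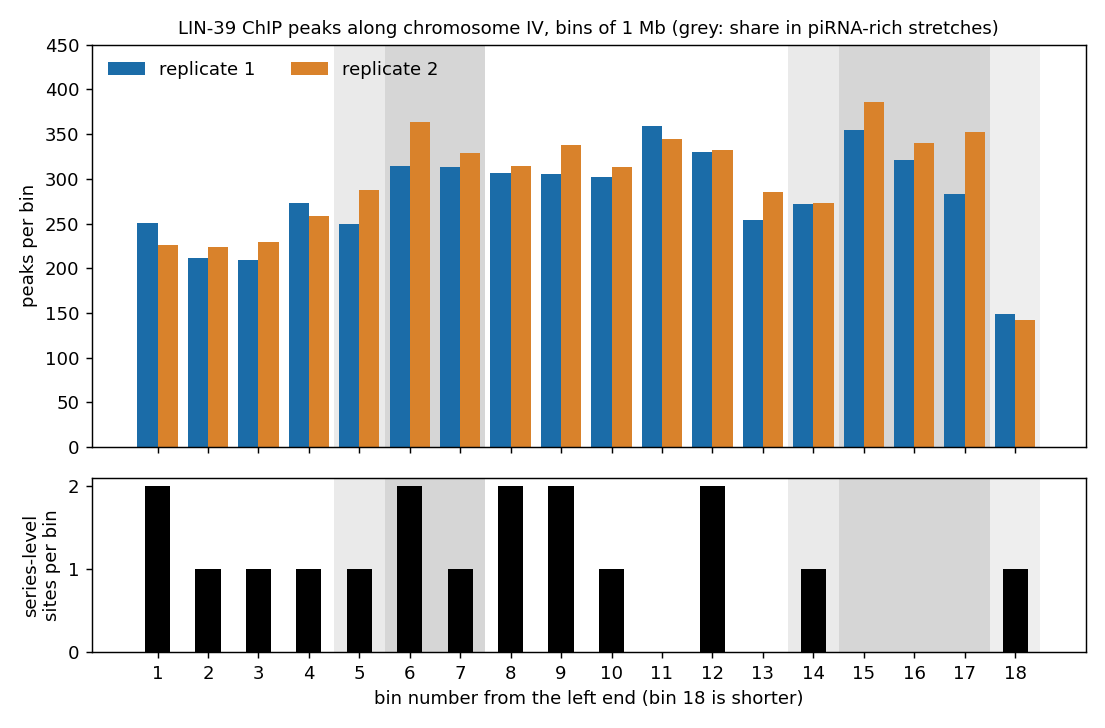
Peaks per 1 Mb bin of chromosome IV in replicate 1 (blue) and replicate 2 (orange), above the number of series-level sites per bin (black), with bins numbered from the left end. Grey shading is darker where more of a bin lies in the piRNA-rich stretches. Bins 1 to 3 held between 209 and 251 peaks, and bins 15 to 17, inside the right stretch, held between 283 and 386 peaks and no series-level site.

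The positions of the series-level sites were set beside these counts, with no test over bins. The bins from 14 to 17 Mb, inside the right piRNA-rich stretch, held 959 peaks of replicate 1 and 1078 of replicate 2, and none of the 18 sites. These bins were singled out after the positions were seen. No expected count of sites was computed for them, so a lack of sites there was not tested. The longest run of IV without a site lay between 13704705 and 17278273, with neighbouring centres 3.57 Mb apart, where the median spacing of sites was 0.769 Mb. The sparse bins from 0 to 4 Mb held 5 sites. In the left stretch, 4 sites lay within 2.5 Mb, and in the right stretch 1 site lay within 3.7 Mb.

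Candidate peaks were denser in the piRNA-rich stretches than in the rest of IV. Replicate 1 had 312 peaks per Mb in the stretches and 277 in the rest of IV, and replicate 2 had 344 in the stretches and 284 in the rest. The ratio was 1.17 ± 0.0602 (SD, n = 2 replicates). This SD describes the 2 lists and not the variation along the chromosome. Over the full bins of IV the SD was 44.2 peaks in replicate 1 and 50 in replicate 2. Whether the ratio exceeds that variation was not tested. Both stretches were alike in density, with 302 peaks per Mb in the left and 318 in the right in replicate 1, and 342 in the left and 345 in the right in replicate 2.

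The rest of IV was itself uneven. Between the stretches there were 302 peaks per Mb in replicate 1 and 314 in replicate 2, while left of 4.5 Mb there were 236 in each replicate. The stretches were thus close to the part between them in replicate 1 and further above it in replicate 2, and far above the sparse left end in both. The nearest peaks on the inner side of the 4 limits had numbers between 4792 and 28920 and those on the outer side between 3354 and 28720, and these ranges overlap widely.

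For the strongest peaks no difference between the stretches and the rest of IV passed a test. The stretches held 54 of the 136 peaks of IV in the first 1000 numbers of replicate 1 (39.7%, 31.4 to 48.4), against 38.2% of the later peaks of IV. In replicate 2 they held 59 of 161 (36.6%, 29.2 to 44.6), against 40.1% of the later peaks. Neither difference passed Fisher's exact test (adjusted p = 0.721 in replicate 1 and 0.553 in replicate 2, over 12 tests), and the 95% intervals of the differences ran from -6.41 to 10 percentage points in replicate 1 and from -10.6 to 4.38 in replicate 2. Of the 18 series-level sites, 5 lay in the stretches (27.8%, 9.69 to 53.5), against 39.1% of the candidate peaks of IV, a difference that did not pass the two-sided exact binomial test (adjusted p = 0.564). With 18 sites, shares as different as these cannot be told apart.

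The centre of IV, taken as the middle of 3 equal parts of the span and running from 5.83 to 11.7 Mb, had more peaks per Mb than the arms. Replicate 1 had 320 peaks per Mb in the centre and 274 in the arms, and replicate 2 had 331 in the centre and 292 in the arms, a ratio of 1.15 ± 0.0227 (SD, n = 2). The arms differed from each other: the left arm had 246 peaks per Mb in replicate 1 and 261 in replicate 2, and the right arm, which holds the right piRNA-rich stretch, had 302 in replicate 1 and 323 in replicate 2. The right arm was therefore closer to the centre than to the left arm in both replicates.

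Series-level sites were divided equally, with 9 in the centre (50%, 26 to 74) and 9 in the arms, against 36.5% of candidate peaks in the centre (two-sided exact binomial test, adjusted p = 0.548 over 12 tests). Of the 9 in the arms, 7 were in the left arm and 2 in the right arm. Among the 6 sites with scores above 0, 2 lay in the centre, at IV 8431968 and IV 9089759.

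The replicates were then compared over all candidate positions on IV. Of the 5056 replicate 1 peaks on IV, 2389 overlapped a replicate 2 peak (47.3%, 45.9 to 48.6), against 44.9% on the other chromosomes and 45.3% over all of them. The difference was 2.32 percentage points (0.812 to 3.83; two-sided Fisher's exact test, adjusted p = 0.0159). In the other direction, 2390 of 5337 replicate 2 peaks overlapped (44.8%, 43.4 to 46.1), against 45.3% on the other chromosomes and 45.2% over all, and this difference did not pass Fisher's exact test (adjusted p = 0.583; interval -1.94 to 1). Single other chromosomes ran from 42.3% on III to 48% on X for replicate 1 peaks. For replicate 2 peaks they ran from 42.3% on III to 48.3% on X. X thus stood above IV in both directions, and a high share was not particular to IV. The overlapping counts on IV were nearly equal in the 2 directions, while replicate 2 had more peaks on IV. The call in replicate 1 ended with centres within 100 bp required, at 22.8% on IV and 21.7% elsewhere, and with peaks matched 1 to 1, at 40.4% on IV and 38.6% elsewhere (adjusted p = 0.219 and 0.0553, Fisher's exact test).

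Peaks of 1 list can meet those of the other without a shared site, and more often where the other list is dense. The share of positions at which a replicate 1 peak would touch a replicate 2 peak was 26.2% on IV and 25.7% on the other chromosomes. Observed overlap was 1.80 times that share on IV and 1.75 times on the others. For replicate 2 peaks these ratios were 1.80 on IV and 1.74 on the others, and the single other chromosomes ran from 1.62 on X to 1.81 on I.

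In the piRNA-rich stretches a larger share of peaks was found in both replicates than in the rest of IV. Replicate 1 peaks overlapped replicate 2 peaks for 1004 of 1932 in the stretches (52%, 49.7 to 54.2) and for 1385 of 3124 in the rest of IV (44.3%, 42.6 to 46.1), a difference of 7.63 percentage points (4.80 to 10.5; Fisher's exact test, adjusted p = 1.58e-06). Replicate 2 peaks overlapped for 1000 of 2132 in the stretches (46.9%, 44.8 to 49) and for 1390 of 3205 in the rest (43.4%, 41.6 to 45.1), a difference of 3.53 points (0.810 to 6.26; Fisher's exact test, adjusted p = 0.0343). The second difference no longer passed Fisher's exact test with centres within 100 bp (adjusted p = 0.418) or with limits moved by 0.5 Mb (adjusted p = 0.245 for shorter and 0.264 for longer stretches). In runs of neighbouring peaks 1 site can be counted more than once, so these p-values can be too small. Overlap within the rest of IV was uneven. Between the stretches it was 46.3% (44.1 to 48.5) in replicate 1 and 44.6% (42.5 to 46.8) in replicate 2. Left of 4.5 Mb it was 41% in replicate 1 and 41.2% in replicate 2. The stretches were not tested against the part between them. On X overlap was 48% in replicate 1 and 48.3% in replicate 2, the latter above the stretches.

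The density of the lists moved with this result. The share of positions at which a replicate 1 peak would touch a replicate 2 peak was 29.2% in the stretches and 24.5% in the rest of IV, and for replicate 2 peaks it was 26.5% in the stretches and 23.9% in the rest. Set against these, overlap was 1.78 times the share in the stretches and 1.81 times in the rest for replicate 1, and 1.77 times in the stretches and 1.81 times in the rest for replicate 2. Relative to this coverage, the ratio was not higher in the stretches in either replicate. The ratio is no independent control, because the coverage includes peaks at sites found in both lists. Its highest possible value also falls as coverage rises. Whether density accounts for the larger overlap in the stretches was not tested. Centres of overlapping peaks were also no closer there, with a median distance of 113 bp in the stretches and 105 bp in the rest for replicate 1, and 112 bp in the stretches and 106 bp in the rest for replicate 2.

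Single bins were compared next. In the 5 full bins that lie wholly in the stretches, overlap of replicate 1 peaks ran from 51.3% to 55.1%, and in the 10 full bins wholly outside it ran from 39.2% to 50.6%, so these did not meet. For replicate 2 peaks the ranges were 44% to 49.5% inside and 36.7% to 52.4% outside, which overlap. As ratios to coverage, the medians over bins were 1.79 inside and 1.80 outside for replicate 1, and 1.74 inside and 1.87 outside for replicate 2. Over the 17 full bins, the share of overlapping peaks was correlated with coverage by the other list (Pearson's r = 0.790 and Spearman's rho = 0.806 for replicate 1, and 0.798 and 0.735 for replicate 2), as a description of bins that share both lists.

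**Figure D3:**
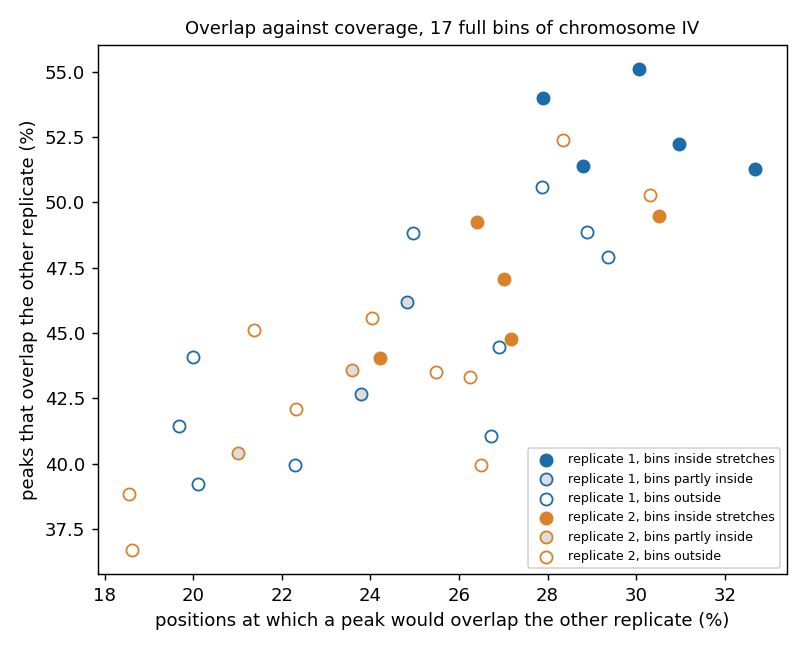
Share of peaks that overlap the other replicate (vertical axis, percent) against the share of positions at which a peak would overlap it (horizontal axis, percent) in the 17 full 1 Mb bins of chromosome IV, for replicate 1 (blue) and replicate 2 (orange). Filled points are bins inside the piRNA-rich stretches, grey points bins partly inside and open points bins outside. Both axes start above 0. Points rise together, and the 5 filled blue points, between 51.3% and 55.1%, lie where coverage is among the highest.

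Agreement between the replicates fell with peak number on IV and likewise on the other chromosomes. On the others, replicate 1 shares went from 84.3% at numbers 1 to 100 to 39.3% at 20001 to 30000. Replicate 2 shares there went from 92.9% to 38.9% over the same ranges. Of the replicate 1 peaks of IV, 9 of 11 overlapped a replicate 2 peak at numbers 1 to 100 (81.8%, 48.2 to 97.7), 77.6% at 101 to 500, 71.6% at 501 to 1000, 56.7% at 1001 to 5000 and 42.4% at 20001 to 30000. Of the replicate 2 peaks, 16 of 16 overlapped at numbers 1 to 100 (100%, 79.4 to 100), 74.5% at 101 to 500, 57.4% at 501 to 1000, 54% at 1001 to 5000 and 39.9% at 20001 to 30000. The median distance between the centres of overlapping peaks was 33.5 bp at numbers 1 to 100 of replicate 2 and 141 bp at 20001 to 30000. In replicate 1 it was 91 bp at numbers 1 to 100, 75 bp at 501 to 1000 and 104.5 bp at 10001 to 20000, and reached 138 bp in the last range. Over the first 1000 numbers, 75% of the replicate 1 peaks of IV overlapped, against 65.3% on the other chromosomes and 66.6% on all (Fisher's exact test, adjusted p = 0.0744), and 67.1% of the replicate 2 peaks did, against 67.1% on all chromosomes.

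Within number ranges the stretches stood above the rest of IV in 6 of 7 ranges of replicate 1 and in 5 of 7 of replicate 2. In replicate 2 numbers 1 to 100 were tied at 100%. Numbers 5001 to 10000 were nearly so, with 48.11% in the stretches and 48.06% in the rest. On the other chromosomes the share at numbers 1001 to 5000 was 54.5% in replicate 1 and 55.4% in replicate 2. In replicate 1 the share at numbers 1001 to 5000 was 63.4% in the stretches (57.1 to 69.3) and 52.3% in the rest (47.2 to 57.4). In replicate 2 it was 55.7% in the stretches (50 to 61.4) and 52.8% in the rest (48 to 57.7) in that range, and at numbers 501 to 1000 it was lower in the stretches, with 51.4% against 61.4% in the rest. Over the first 1000 numbers together, 44 of 54 replicate 1 peaks in the stretches overlapped (81.5%) and 58 of 82 in the rest (70.7%), whereas for replicate 2 these were 37 of 59 in the stretches (62.7%) and 71 of 102 in the rest (69.6%). The replicates therefore differed in direction for the peaks with the lowest numbers, and neither difference passed Fisher's exact test (adjusted p = 0.449 in replicate 1 and 0.553 in replicate 2).

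**Figure D4:**
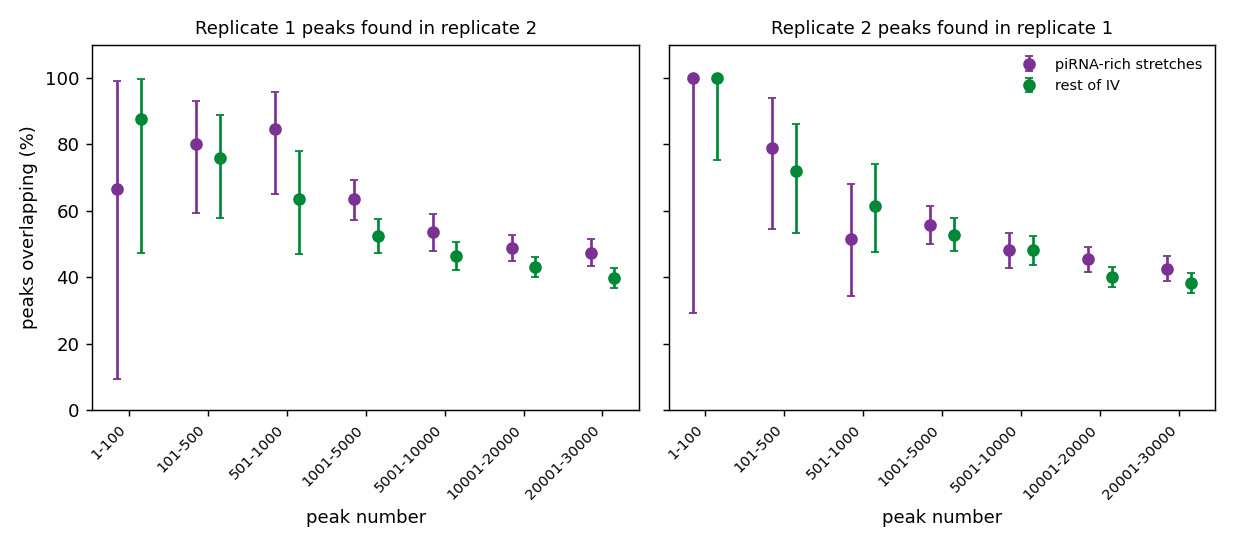
Share of peaks on chromosome IV that overlap a peak of the other replicate (vertical axis, percent) by range of peak number (horizontal axis), in the piRNA-rich stretches (purple) and in the rest of IV (green), for replicate 1 peaks (left) and replicate 2 peaks (right). Bars are 95% exact binomial intervals, which cover counting error only. Shares fall to 47.4% in the stretches and 39.7% in the rest at numbers 20001 to 30000 of replicate 1.

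Between the centre and the arms the share of peaks found in both replicates differed less. It was 48.1% in the centre and 46.8% in the arms for replicate 1 (Fisher's exact test, adjusted p = 0.548; interval of the difference -1.51 to 4.19 percentage points), and 46.3% in the centre and 43.9% in the arms for replicate 2 (adjusted p = 0.219; -0.356 to 5.20). By arm, the left had 43.6% in replicate 1 and 41.6% in replicate 2, and the right had 49.3% in replicate 1 and 45.8% in replicate 2. The right arm was thus above the left in both replicates, a contrast that was not tested. Ratios to coverage ran the other way, with 1.93 in the left arm and 1.78 in the right for replicate 1, and 1.94 in the left and 1.77 in the right for replicate 2.

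The share of IV among the strongest replicate peaks was compared with its share among the later ones. In replicate 1 IV held 136 of the first 1000 numbers (13.6%, 11.5 to 15.9), against 17% of the later 29000 (Fisher's exact test, adjusted p = 0.0182). In replicate 2 it held 161 of the first 1000 (16.1%, 13.9 to 18.5), against 17.8% of the later ones, which did not pass Fisher's exact test (adjusted p = 0.330). At a length of 500 the calls of Fisher's exact test changed places: replicate 1 had 13.8% (adjusted p = 0.212) and replicate 2 had 13.4% (adjusted p = 0.0274), each against a larger share of later peaks. The call in replicate 1 was also lost at a length of 2000 (15.1%, adjusted p = 0.0913) and with peaks ordered by score (15.8%, adjusted p = 0.553, Fisher's exact test), so it passed at 1 of 4 settings, and the share stayed below that of the later peaks at all 4.

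The rank order of matched peaks was weakly shared on IV. Over 2044 pairs of mutual nearest centres, Spearman's correlation of peak numbers was 0.0881, where the other chromosomes ran from 0.0904 to 0.145. These are values over positions of the same 2 libraries and carry no test.

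Runs of overlapping peaks within a list held 30.3% of the peaks of IV in replicate 1 and 30% in replicate 2, against 29.5% in replicate 1 and 28.6% in replicate 2 on the other chromosomes. In the stretches they held 32% in replicate 1 and 31.8% in replicate 2, against 29.3% in replicate 1 and 28.8% in replicate 2 in the rest of IV. Runs on IV had at most 4 peaks. In replicate 2 all 3 runs of 4 lay in the stretches, at IV 6190126 to 6191544, 14481390 to 14482957 and 16155462 to 16156933, and the last of these met no replicate 1 peak. In replicate 1 the 2 runs of 4 were at IV 5604030 to 5605414, in the left stretch, and 7819120 to 7820616, outside the stretches.

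Empty intervals were also found inside the stretches. The longest on IV in replicate 1 was 66671 bp, at IV 6681324 to 6747994, and replicate 2 had 4 peaks there, the lowest numbered 12707. The longest in replicate 2 was 41007 bp, at IV 5223256 to 5264262, and replicate 1 had 1 peak there. Both lie in the left stretch. The median distance between neighbouring centres was 2140 bp in the stretches and 2335 bp in the rest of IV in replicate 1, and 1906 bp in the stretches and 2272.5 bp in the rest in replicate 2.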

How the data were processed

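Peak lists of 2 ChIP replicates and of the series as a whole were used. Per the file headers, positions are in WormBase WS220, and the source field of each row names the SPP caller and the IDR (irreproducible discovery rate) procedure. The sources used here give no aligner, setting or version, and nothing on any pooling of reads behind the series-level list. The log10 score deposited by the authors was read from its values: solved for c, log10((n - 0.5)/(c + 0.5)), with n the peak number, came out whole within 0.001 for 99.2% of IV peaks in replicate 1, 99.6% in replicate 2 and 100% of the series-level sites, leaving aside peaks at the highest score. Peaks were ordered by peak number.

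All values were computed with Python 3.11.15, pandas 2.3.3, numpy 2.4.6 and scipy 1.17.1. Overlap meant at least 1 bp in common. Peaks were placed by their centre, and the span of IV was the highest peak end (17.5 Mb). The number given for a site is the lowest among overlapping replicate peaks, and the distance is to the nearest centre, which can be another peak. Positions touching were counted from the widened peaks of the other list. Shares were compared by two-sided Fisher's exact or exact binomial tests, adjusted by Benjamini-Hochberg over 12 tests. An alternative was adjusted with its p in place of the original one. Intervals are 95%, exact for shares and by Newcombe's method for differences, and cover counting error only. The overlap functions were tested on simulated data. Named sites were all series-level sites of IV and the 10 lowest numbers of IV per replicate, and named bins were the 3 highest and 3 lowest. Other positions were named after their values were seen. The stretches, bins and tests were chosen with earlier results of these data known. Sequence was not analysed here.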

Additional observations from a re-analysis of the deposited data

How the results depend on the processing

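For 15 results 76 alternatives were run: 54 left the direction and the call at 0.05 as they were (or moved a density by less than 1 SD), 13 ended a call, 1 made one, 3 moved a density and 5 turned the direction, and the cause was not tested. The last included no result that had passed except overlap of replicate 2 peaks in the stretches. Chosen after seeing the data were the peaks numbered above 1000 and the comparison of series-level scores between IV and the other chromosomes, with its alternatives. The density ratio of the stretches became 1.11 with stretches lengthened by 0.5 Mb (the right limit at 17.2 Mb was kept in both alternatives) and ran from 1.13 to 1.21 leaving out 1 replicate. That of the centre became 1.12 with a centre from 4 to 13 Mb and 1.22 over the first 15000 numbers, and ran from 1.13 to 1.17 leaving out 1 replicate. Overlap of replicate 1 peaks on IV became 22.8% with centres within 100 bp, 40.4% matched 1 to 1 and 75% over the first 1000 numbers, none passing. In the stretches it became 81.5% over the first 1000, not passing, with fewer peaks tested. Overlap of replicate 2 peaks in the stretches became 22.5% with centres within 100 bp, 39.7% matched 1 to 1, 46.5% in shorter and 45.9% in longer stretches, none passing, and over the first 1000 numbers it turned, at 62.7% against 69.6% in the rest. In the centre it turned likewise, at 62.8% against 71.1% in the arms. The share of series-level sites in the centre turned to 33.3% for scores above 0, which leaves 6 sites. It and the share in the stretches passed in no alternative, leaving out either replicate included. The share of the first 1000 peaks of replicate 1 in the stretches turned to 32.9% ordered by score and to 42.6% with longer stretches. The share of IV in the first peaks of replicate 1 was 15.8% by score, 13.8% at 500 and 15.1% at 2000, none passing, and in replicate 2 it passed at 500, with 13.4%. Series-level sites on IV reached an estimate below 0.5 in 27.8% and the first 70 numbers in 33.3%, neither passing. No paired analysis was possible because no peak list of the input libraries was used, so ChIP could not be set against input by replicate number. Unknown depth limits every comparison of the replicates.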
